A study of Mus musculus with 2 samples.

Results

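A set of 10 genes of mitochondrial fission and fusion, *Dnm1l* among them, was followed in cultured primary hepatocytes from control mice and from *Drp1*LiKO mice. They were taken by gene name from the rows of the 2 array files that are not control spots: the fission genes *Dnm1l*, *Fis1*, *Mff*, *Gdap1* and *Mtfr1*, the fusion genes *Mfn1*, *Mfn2* and *Opa1*, and *Oma1* and *Yme1l1*, which encode proteases that cut OPA1. These 10 of 37074 gene names were read by 26 of 56600 probes, and 20 of the 26 probes, covering 9 of the 10 genes, were well above background. *Drp1*LiKO mice carried Alb-Cre Tg/+ with Drp1 flox/flox, and controls were sibling littermates with Drp1 flox/flox and no Cre and labelled as wild type control. The floxed allele was therefore shared by both groups, and Cre was driven by the albumin promoter, which is active in hepatocytes and not in Kupffer, endothelial or stellate cells. Strain, age and sex of the mice behind these 2 arrays are not given in the sources used here. Hepatocytes were isolated by collagenase perfusion and spun at 50 g, floating cells were discarded with the medium after 4 h, and RNA was taken 24 h after seeding. Each genotype had 1 array, both on 1 slide, with no replicate, so no test, SD or p-value is given and every ratio compares 2 arrays rather than 2 genotypes.

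Mitochondria divide when the dynamin-related GTPase DRP1, the product of *Dnm1l*, is drawn from the cytosol to adaptors on the outer membrane, forms a ring and constricts the organelle. Fusion of outer membranes is carried out by the mitofusins and fusion of inner membranes by OPA1, a dynamin-related GTPase whose long forms OMA1 and YME1L1 convert to short forms. In hepatocytes, rich in mitochondria, loss of DRP1 is known to leave mitochondria enlarged or elongated.

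The arrays carry 60-base probes, and the sequences of those on which the results turn are shown as the files give them, 5′ to 3′. Both *Dnm1l* probes are shown since they gave different ratios. Of the probe listed for NM_001276340 (mm9, chr16:16312363-16312422, minus strand) only the first 30 bases are given, as none of its 3 reading frames is free of stop codons. The probe listed for the cDNA BC027538 (chr16:16336911-16336970) lies further towards the start of the gene, and its capitals mark GTAAG, letters often found where an intron begins. GTAAG stands in 3 of the 26 probes and in 3.94% of all probes, so its presence describes the probe and does not place it in an intron. The probes of *Fis1* (NM_025562, chr5:137441507-137441812), *Mff* (AK184380, chr1:82727811-82743670) and *Opa1* (NM_133752, chr16:29629784-29630207) are shown because their 60 bases span 306, 15860 and 424 genomic bases, so that each reads RNA joined across at least 1 intron. The *Yme1l1* probe (NM_013771, chr2:23048648-23048707) is shown because it holds codons for the zinc-binding motif of metalloproteases, marked in capitals, a pattern present in 0.208% of all probes as plain letters in any frame.
Dnm1l, NM_001276340, first 30 bases: ctgatgtgttctgaaacatggagataattt
Dnm1l, BC027538: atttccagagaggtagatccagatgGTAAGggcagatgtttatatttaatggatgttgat
Fis1, NM_025562: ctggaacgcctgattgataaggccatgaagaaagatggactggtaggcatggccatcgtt
Mff, AK184380: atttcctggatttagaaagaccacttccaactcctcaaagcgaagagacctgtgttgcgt
Opa1, NM_133752: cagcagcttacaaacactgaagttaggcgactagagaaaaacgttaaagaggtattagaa
Yme1l1, NM_013771: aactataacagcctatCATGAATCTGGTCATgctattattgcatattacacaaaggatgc

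*Dnm1l*, the targeted gene, was the only member past 2-fold. Its brighter probe read a processed signal (intensity after the scanner software's background correction) of 2602 on the control array and 1217 on the *Drp1*LiKO array. After subtraction of each array's 75th percentile on the log2 scale, this was a log2 ratio (*Drp1*LiKO minus control) of -1.28, or 41.2% of control. Its technical error was 0.204 from the software's error of each signal, and 0.104 from the scatter of probes of similar signal printed 10 times. Neither error includes variation between mice. Of the 20165 detected genes, 593 (2.94%) had a lower ratio, and the central 90% of all genes lay between -0.95 and 1.05. Thus 1 of 9 detected members was past 2-fold, against 9.91% of all detected genes in either direction and 4.59% lower in *Drp1*LiKO. The study names a Z score of 2 as its threshold but does not say how it was computed, so its own score for *Dnm1l* may differ. Taken here over all detected probes, that limit lay at a log2 ratio of -1.31, and *Dnm1l*, at a Z score of -1.95, fell just short of it. By this formula 0 members were past a Z score of 2, against 6.30% of all detected genes. Among 1000 probes of similar signal, in place of all probes, the Z score of *Dnm1l* was -2.89.

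The second *Dnm1l* probe, with GTAAG in its sequence, read 22.8 in control and 20.9 in *Drp1*LiKO. Its log2 ratio of -0.31 was smaller than its software error of 0.40, and its signals lay near the lowest signal that counted as well above background, 18.2 on the control array and 15.0 on the *Drp1*LiKO array. With the median of both probes in place of the brighter one, the ratio of *Dnm1l* was -0.79, or 57.7% of control, and no member was past 2-fold. The sources used here do not say which exons the floxed allele removes, so whether either probe lies inside the deleted part is unknown. A probe outside it would still bind a shortened transcript.

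**Figure D1:**
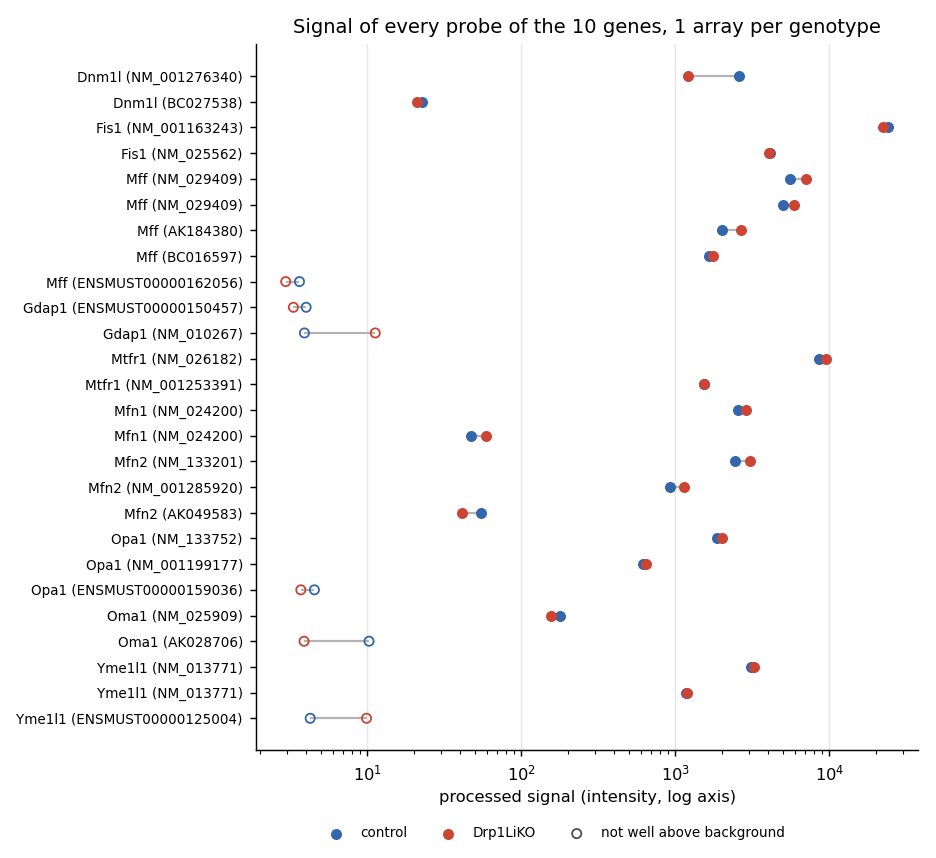
Processed signal of each of the 26 probes on the control array (blue) and the Drp1LiKO array (red), on a log axis; open circles are not well above background, and the name in brackets is the transcript the files list. The brighter Dnm1l probe fell from 2602 to 1217, while the pair of points lies close together for the other detected probes; signals of different probes cannot be set against each other.

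The adaptors and other fission genes stayed within a narrow range. *Fis1*, encoding an outer-membrane protein that can bind DRP1, gave 24191 in control and 22240 in *Drp1*LiKO with its brightest probe (chr5:137442037-137442096). This was a log2 ratio of -0.30, beyond its software error of 0.204 and the only one of the 8 other detected members beyond 3 times its spot scatter. The junction probe of *Fis1* read 4110 and 4047, a ratio of -0.20, in the same direction. Both ratios of *Fis1* were below the median of all genes, -0.05, and well short of 2-fold.

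*Mff*, the mitochondrial fission factor and a main DRP1 receptor, was read by 5 probes, of which 4 were detected. The brightest (chr1:82748825-82748884) read 5549 in control and 7021 in *Drp1*LiKO, a log2 ratio of 0.16. The probe across the 15860 bases read 2012 and 2654, a ratio of 0.22, and the other 2 detected probes gave 0.05 and -0.10. The ratios of *Mff* thus took both signs and were 0.31 apart at most, with a software error of 0.204 each.

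*Mtfr1*, encoding a mitochondrial fission regulator, read 8623 in control and 9556 in *Drp1*LiKO with one probe (chr3:19119481-19119540), and 1526 and 1532 with the other. The log2 ratios were -0.03 and -0.18. Signals that rose slightly gave ratios below 0 because the 75th percentile itself was higher on the *Drp1*LiKO array, 356 against 313. *Gdap1*, encoding an outer-membrane protein best known from peripheral nerve, was not well above background on either array with either of its 2 probes. Its signals were 4.01 and 3.91 in control and 3.31 and 11.3 in *Drp1*LiKO, and no ratio was formed.

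The mitofusin genes gave near-equal values on both arrays. *Mfn1* read 2540 in control and 2891 in *Drp1*LiKO (chr3:32476215-32476274), a log2 ratio of 0.00, and its second probe read 47.1 and 59.4, a ratio of 0.15 with an error of 0.245. *Mfn2*, which also tethers mitochondria to the endoplasmic reticulum, read 2461 and 3049 with its brightest probe (chr4:147247695-147247748), a ratio of 0.13, and 928 and 1142 with the next, a ratio of 0.12. The remaining probe, listed for the cDNA AK049583 and no RefSeq mRNA, read 54.5 in control and 41.2 in *Drp1*LiKO. That ratio of -0.59, with an error of 0.266, was opposite in sign to the other 2 *Mfn2* probes and the lowest of the 18 detected probes of genes other than *Dnm1l*.

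*Opa1*, encoding the inner-membrane fusion GTPase, read 1854 in control and 2022 in *Drp1*LiKO with its junction probe, and 618 and 646 with the probe at chr16:29654613-29654672. The log2 ratios were -0.06 and -0.12, both inside the software error of 0.204. *Oma1*, the stress-activated protease that cuts OPA1, read 177 in control and 155 in *Drp1*LiKO (chr4:103038974-103039033), a ratio of -0.38 with an error of 0.209. This was the lowest gene ratio after *Dnm1l*, from 1 detected probe. *Yme1l1*, the ATP-dependent protease of the inner membrane, read 3084 and 3242 with its brightest probe (chr2:23052695-23052754), a ratio of -0.11. The probe over its zinc-binding motif read 1170 and 1193, a ratio of -0.15. The remaining probes of *Opa1*, *Yme1l1* and *Oma1* were not well above background on either array.

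**Figure D2:**
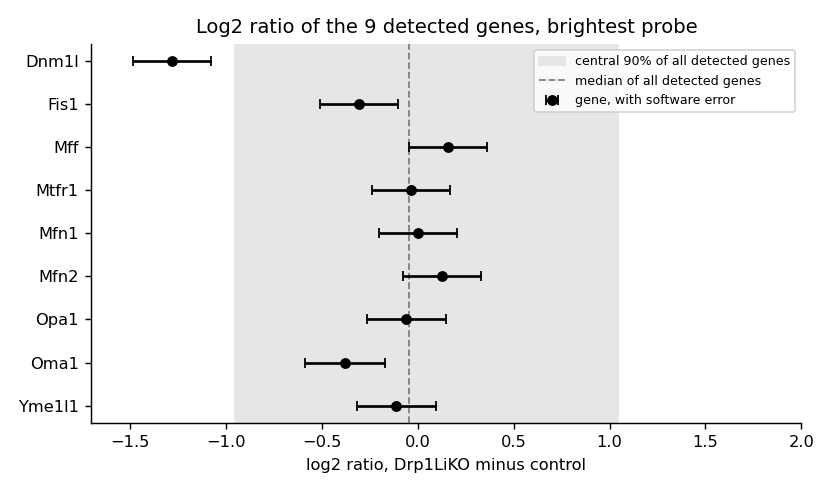
Log2 ratio (Drp1LiKO minus control) of the 9 detected genes by their brightest probe, with bars for the software's technical error; the grey band is the central 90% of all detected genes, from -0.95 to 1.05, and the dashed line their median of -0.05. Dnm1l at -1.28 lies outside the band and the other 8 genes, between -0.38 and 0.16, inside it.

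Apart from *Dnm1l*, 3 of 8 detected members were higher and 5 lower in *Drp1*LiKO, 0 were past 2-fold, and 6 lay within their software error of 0, *Fis1* and *Oma1* being the exceptions. Over the 18 other detected probes, 7 were higher and the range was -0.59 to 0.22. The median log2 ratio was -0.06 over the 9 members and -0.05 over all detected genes. The median absolute ratio of the 8 was 0.12, beside 0.24 over all genes. The latter includes many dim genes, whose ratios scatter more, as the plot of ratio against signal shows. By role, the median was -0.03 over the 3 detected fission genes other than *Dnm1l* (-0.17 with it), 0.00 over the 3 fusion genes and -0.24 over both proteases.

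**Figure D3:**
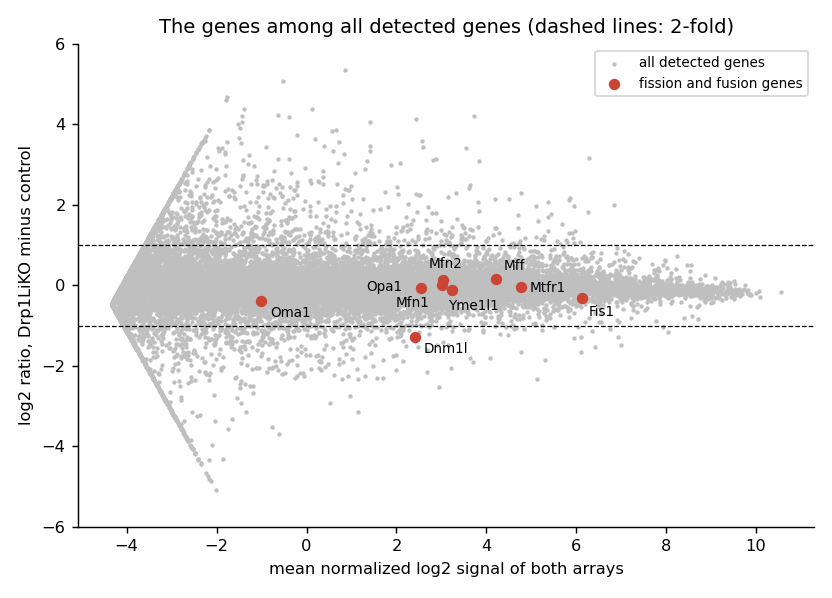
Log2 ratio (Drp1LiKO minus control) against the mean normalized log2 signal of both arrays for all 20165 detected genes (grey) and the 9 detected fission and fusion genes (red); dashed lines mark 2-fold, and the diagonal edges at the left are ratios in which 1 signal was raised to the floor. Only Dnm1l among the 9 lies beyond a dashed line.

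The 26 probes differ in what they were designed on. Of 17 probes that list a RefSeq mRNA, 16 were detected, the exception being one of *Gdap1*. Of the 9 that list none but only a cDNA or an Ensembl transcript, 4 were detected and 5 were not. Of those 4, the probes of *Dnm1l* and *Mfn2* stayed below a signal of 100 on both arrays, and both *Mff* probes were above it. Among the 16 detected probes with a RefSeq mRNA, only the second probe of *Mfn1* stayed below 100. The probes whose ratios departed most from that of their gene's brightest probe, those of *Dnm1l* and *Mfn2*, were thus both dim and without a listed RefSeq mRNA.

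A further 53 genes that act with these 10, or in the same organelle, were listed by role, and 52 were detected. Relative to the 75th percentile, 26 were higher and 26 lower, with a median of -0.00, and 0 were past 2-fold, against 9.91% of all detected genes. That share includes many dim genes, whose ratios scatter more, so the 2 are not matched for signal. Among 9 other fission genes, 6 were higher, with a median of 0.11. *Mtfp1*, encoding an inner-membrane fission protein, was the highest of all 53, from 777 in control to 1662 in *Drp1*LiKO, a log2 ratio of 0.91. *Mief2*, a DRP1 receptor of the outer membrane, read 331 and 276, a ratio of -0.44, while its relative *Mief1* gave 0.04.

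Of 14 other fusion genes and partners of OPA1, 11 were lower in *Drp1*LiKO by brightest probe, with a median of -0.16, where 55.5% of all detected genes were lower, with a median of -0.05. The median of the 14 was -0.09 with the median of a gene's probes, and also with normexp background correction. Probes of some genes took both signs, such as *Immt* (-0.19 and 0.38) and *Chchd3* (0.28 and -0.16). Ratios of the 14 ran from -0.49 for *Pld6*, a mitochondrial phospholipase, to 0.28 for *Chchd3*, a cristae organizing protein. *Pld6* read 18.6 in control, next to the floor of 18.2, and was not well above background in *Drp1*LiKO. Its value is a bound that lies close to what the floors of the 2 arrays alone would give. Without *Pld6*, 10 of 13 were lower, with a median of -0.13. The 10 modifiers of DRP1 and the mitofusins split evenly, 5 higher and 5 lower, from -0.31 for *Park2*, the ubiquitin ligase parkin, to 0.44 for *Senp5*, a SUMO protease.

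Of the 4 genes of mitochondrial transport 3 were higher, from -0.10 for *Trak2* to 0.14 for *Trak1*, both motor adaptors. In peroxisome division, a process that also uses DRP1, *Pex11g* read 1196 in control and 1687 in *Drp1*LiKO, a log2 ratio of 0.31. Of the classical dynamins, which act at the plasma membrane, *Dnm2* gave 0.16 and *Dnm1* 0.50, though the other detected *Dnm1* probe gave -0.92, and *Dnm3* was not detected. Among 10 genes for abundant mitochondrial proteins 4 were higher, with a median of -0.05, from -0.38 for *Tfam*, the packaging factor of mitochondrial DNA, to 0.23 for *Tomm20*, an import receptor.

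**Figure D4:**
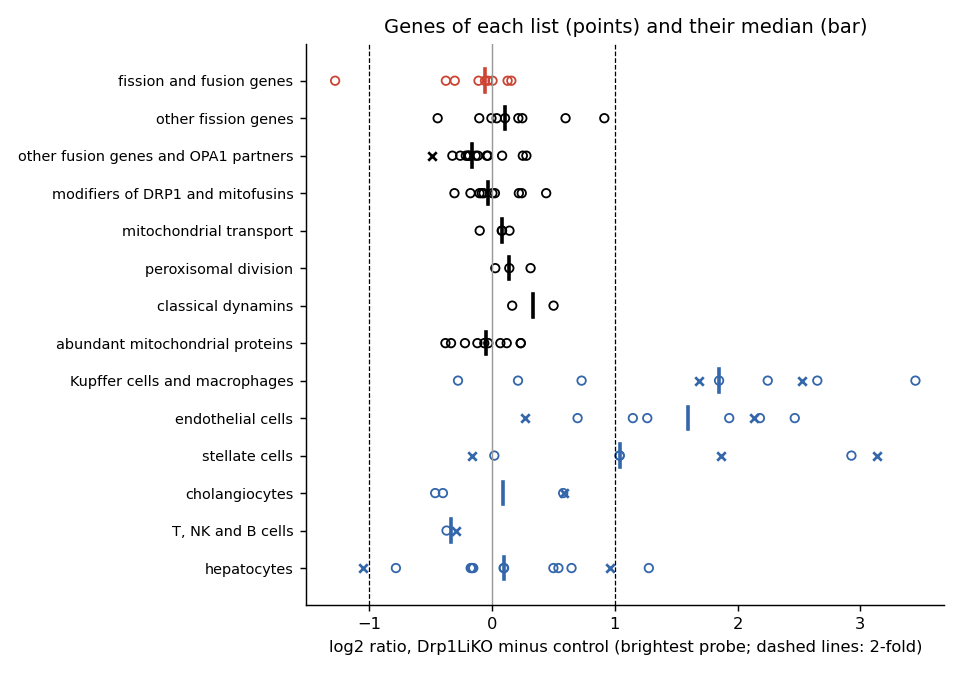
Log2 ratio (Drp1LiKO minus control) of each detected gene, by its brightest probe, in lists with at least 2 detected genes: the fission and fusion genes (red), related mitochondrial lists (black) and cell type markers (blue); crosses are genes well above background on 1 array only, whose ratio is a bound, bars are medians and dashed lines mark 2-fold. Of the related mitochondrial genes 0 pass a dashed line, while Kupffer cell and endothelial markers have medians of 1.85 and 1.60 (1.14 and 0.84 with normexp background correction).

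All 12 hepatocyte markers were well above background on at least 1 array, 10 of them on both, which does not measure how pure the culture was. By brightest probe 7 were higher and 5 lower in *Drp1*LiKO, and the median of their log2 ratios was 0.10. Of the 10 measured on both arrays 6 were higher and 4 lower, with the same median. *Cps1* was dim, at 65.4 in control and 116 in *Drp1*LiKO. *Cyp2e1* gave -0.78 with its brightest probe and -1.09 with another. *Alb*, for albumin, read 219613 in control and 266703 in *Drp1*LiKO. *Tat*, an enzyme of tyrosine breakdown, was past 2-fold at 1.28. *G6pc*, the last enzyme of glucose output, was not well above background in *Drp1*LiKO and its -1.05 is a bound, and *Pck1* was not in control. Markers of other liver cells were also present and differed between the arrays. Several of them entered only through the *Drp1*LiKO array, with the control signal raised to the floor. There some were high, while *Tek* at 24.9 and *Des* at 18.5 lay near that array's floor of 15.0. Counts are therefore given for markers well above background on both arrays. Of 10 markers of Kupffer cells and macrophages 7 were so, 6 of them higher in *Drp1*LiKO by brightest probe and 4 past 2-fold. Ratios of the 7 ran from -0.28 for *Itgam*, the 1 that was lower, to 3.45 for *Marco*. *Cd14*, with the highest signal of the list, gave 0.21. *Csf1r*, counted as higher at 0.73, also had a detected probe at -0.02. *Clec4f* and *Vsig4* were measured in *Drp1*LiKO only, and *Timd4* on neither array. The summed signal of the list, in units of each array's 75th percentile, was 47.2 in control and 82.3 in *Drp1*LiKO, and 26.7 and 58.6 without *Cd14*. Of 8 endothelial markers 6 were measured on both arrays, all 6 higher and 5 past 2-fold by brightest probe, and *Lyve1* and *Tek* in *Drp1*LiKO only. *Stab2*, at 1.15 among those 5, also had a detected probe at -0.25. The summed signal of this list was 13.2 in control and 23.8 in *Drp1*LiKO, mostly *Egfl7*, and 1.12 and 4.27 without it. Of 8 stellate cell markers 4 were measured on both arrays, all 4 higher and 3 past 2-fold by brightest probe, *Des*, *Pdgfrb* and *Col3a1* in *Drp1*LiKO only, and *Lrat* on neither. *Col1a2*, at 2.93 among those 3, also had a detected probe at -0.18. The summed signal of the stellate list, 69.4 and 73.9, was almost all *Acta2*, whose brightest probe gave a ratio of 0.02 and another 2.20. Without *Acta2* the sum was 1.00 in control and 4.63 in *Drp1*LiKO. The medians on both arrays were 1.85, 1.60 and 1.04 for these 3 lists, and 1.14, 0.84 and 0.61 over all their detected genes with normexp background correction. Of 5 cholangiocyte markers 3 were measured on both arrays, 1 higher and 2 lower, *Epcam* on neither. Their summed signal was 93.8 in control and 70.0 in *Drp1*LiKO, and 14.9 and 12.8 without *Spp1*. Of 6 T, NK and B cell markers 4 were measured on neither array. Of 4 neutrophil markers 3 were likewise not, and *Ly6g* was measured in *Drp1*LiKO only, at a bound of 1.90. The part of such cells in the *Dnm1l* signal that remained in *Drp1*LiKO, or in any ratio given here, was not tested. In RNA from a whole culture, fewer cells of a type and less RNA per cell cannot be told apart.

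**Figure D5:**
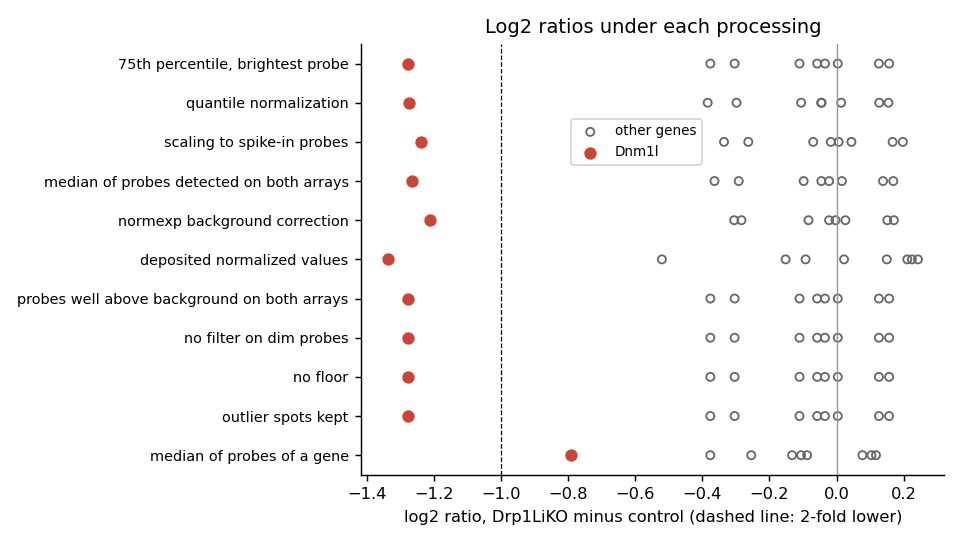
Log2 ratio (Drp1LiKO minus control) of Dnm1l (red) and of the other 8 detected genes (open circles) under each processing, with the values reported here in the top line; the dashed line marks 2-fold lower. Dnm1l lies between -1.34 and -1.21 except with the median of a gene's probes, at -0.79, and the other genes stay between -0.52 and 0.24.

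Under the processing alternatives, *Dnm1l* had the lowest ratio of the 9 genes each time. *Fis1* and *Oma1* were lower, and *Mff*, *Mfn1* and *Mfn2* higher, under all 10 alternatives, with ranges of -0.30 to -0.15, -0.52 to -0.31, 0.10 to 0.22, 0.00 to 0.15 and 0.12 to 0.24. *Mtfr1* turned to 0.01 with scaling to spike-in RNA. *Opa1* turned to 0.21 and *Yme1l1* to 0.02 with the authors' normalized values. Those values follow the probe order of the *Drp1*LiKO array less closely (Spearman 0.958) than that of the control array (0.999999).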

How the data were processed

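Gene expression was measured with Cy3 on SurePrint G3 Mouse 8x60K v2 arrays. The authors deposited scanner output with the processed signal intensity and raw mean and background intensity of each spot (Feature Extraction 9.5.1.1 per the processing notes, 10.7.1.1 per the file headers), and a table of normalized intensity, whose order of probes matched the control array (Spearman 0.999999) better than the *Drp1*LiKO array (0.958). 

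Outlier and control spots were left out, the mean log2 processed signal of each probe was taken, with no pseudocount, and centred on its array's 75th percentile. Probes had to be well above background on 1 array or both; dimmer signals were raised to the lowest signal well above background of that array. A gene was its brightest detected probe, and the Z score used the mean and SD over 30275 detected probes. Python 3.11.15, numpy 2.4.6, pandas 2.3.3, matplotlib 3.10.9 and, for alternatives, R 4.3.3 with limma 3.58.1 were used. The code was run on simulated data, with a pass required for raised genes and for the median of unchanged genes, not for lowered genes. The software's error includes a preset 10% multiplicative term. Spot scatter came from 277 probes printed 10 times (median SD 0.037 log2 in control and 0.042 in *Drp1*LiKO). Array number limits the precision. 0 spots of the 10 genes were saturated.

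Groups came from the genotype labels. As each genotype had 1 array, nothing was tested. Members and gene lists were chosen with earlier results of these data known. Named were the 10 genes with all probes, the highest and lowest gene of each list (1 of them is not reported here) and any past 2-fold, and bright markers; *Mief1*, markers measured on 1 array or neither, *Dnm2* and the probes shown as sequences were chosen after their values were seen. The rule's 3 genes nearest to *Dnm1l* were left out, as they set levels of different probes against each other. Coordinates are those of the files (mm9), and exons, UTRs and protein features were not analysed here. Alternatives were quantile normalization, spike-in scaling, scaling to the median of probes detected on both arrays, normexp background correction (offset 50), the deposited normalized values, omission of the floor, stricter or absent filters on dim probes, inclusion of outlier spots, the median of a gene's probes, and 2 other Z scores.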

Additional observations from a re-analysis of the deposited data

How the results depend on the processing

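The log2 ratio of *Dnm1l* was -1.28 and ranged from -1.34 to -1.21 under 9 alternatives. With the median of its probes it was -0.79, which left 0 members past 2-fold. The count of members past a Z score of 2, 0 as reported, became 1 (*Dnm1l*) with normexp background correction (Z score -2.86), with probes well above background on both arrays (-2.31), with no filter on dim probes (just past the limit), with the median absolute deviation (-3.46), and among 1000 probes of similar signal (-2.89). It stayed 0 elsewhere, the Z score of *Dnm1l* being -1.57 with the deposited values, -1.47 with no floor and -1.20 with the median of its probes. The cause was not tested. Median ratios of Kupffer cell, endothelial and stellate markers ranged from 1.14 to 2.03, 0.84 to 2.06 and 0.61 to 1.33, each lowest with normexp. Except where both arrays were required, these medians include markers well above background in *Drp1*LiKO only. The highest endothelial and stellate values came with no floor, where control signals not well above background enter as they are. The median of the members ranged from -0.11 to 0.02. Without a filter on dim probes the median of all genes moved from -0.05 to -0.47. That setting adds genes well above background on neither array, with dim signals raised to floors of 18.2 in control and 15.0 in *Drp1*LiKO. After centring, such floored pairs take a ratio set by the floors, so this shift is not a measured decrease. With the median absolute deviation 15.7% of all genes passed a Z score of 2. No paired analysis was possible because each genotype had 1 array, and no replicate could be left out for the same reason. The smallest signals, such as those of *Gdap1*, give no ratio. The search of protein features was not run.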
